A study of Mus musculus with 8 samples.

Results

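The 7 receptors described here, Gpr37, Adgrg1, Adgrb3, S1pr1, S1pr5, Lpar1 and Ednrb, are G protein-coupled receptors with described roles in progenitor division or myelination, and they were chosen by name. All 7 were listed among the 11315 genes of the RNA tables, and 500 of the 1497075 CpG sites of the hydroxymethylation tables lay in a promoter, exon or intron of one of them. Transcripts were measured by RNA-sequencing and 5-hydroxymethylcytosine by reduced representation profiling (RRHP) in 2 populations sorted by fluorescence from the brains of C57BL/6 mice at postnatal day 60. The adult progenitor cells of oligodendrocytes (aOPC) carried EGFP fused to histone H2B at the Pdgfra locus, and adult oligodendrocytes (aOL) came from mice of another EGFP reporter line. Each population had 2 RNA libraries and 2 RRHP libraries, numbered replicates 2 and 3, with DNA and RNA taken from one cell pellet, and a first replicate was not analysed here. Nothing in the sources used here says how many animals stand behind a pellet, so the p-values measure the spread between these libraries. The names aOPC and aOL follow the sample titles, because for aOL in RRHP the tissue label gives the Pdgfra reporter, and for aOL in RNA the titles have pre-myelinating cells where the protocol has myelinating ones.

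G protein-coupled receptors cross the membrane several times and pass the binding of a ligand to heterotrimeric G proteins inside the cell. In the oligodendrocyte lineage such receptors hold progenitors in division, set the time at which they differentiate, or act on the membrane sheets of the mature cell. GPR37 restrains differentiation, ADGRG1 (GPR56) is an adhesion receptor that keeps progenitors dividing, and ADGRB3 (BAI3) is an adhesion receptor of the brain-specific angiogenesis inhibitor family that binds C1q-like proteins. S1PR1 and S1PR5 bind sphingosine 1-phosphate, LPAR1 binds lysophosphatidic acid, and EDNRB binds endothelins. 5-hydroxymethylcytosine (5hmC) is made from methylated cytosine by TET enzymes and is plentiful in brain DNA. RRHP reads it at CCGG, the site cut by the enzyme MspI, because a glucosylated 5hmC keeps the site and its adapter from being cut.

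The markers told the populations apart only in part. All 10 oligodendrocyte markers were listed, and the lowest of them stood at a log2 value of 15.62 and 15.74 in aOPC against 14.88 and 15.17 in aOL, where the median of all listed genes was 10.57 in each library. None was called (limma), 4 were lower and 0 higher in aOL at an unadjusted p under 0.05, where 24.0% of all tested genes reached that level in either direction, and the median difference was 0.00. Below aOPC without overlap lay 4 of the 10, where 29.9% of all genes did, and above it 2, where 31.9% did. The 2 above were Cnp, at 19.40 and 19.28 in aOPC against 19.58 and 19.58 in aOL, and Ermn, at 17.16 and 16.86 in aOPC against 17.62 and 17.55 in aOL. The myelin genes Opalin, Cldn11 and Mog differed by -0.98, -0.76 and -0.65 log2 units, with lower values in aOL (limma, adjusted p = 0.145, 0.185 and 0.19). Of the 11 OPC markers, all listed, none was called (limma), 3 were lower and 0 higher in aOL at an unadjusted p under 0.05, and 5 lay below and 1 above aOPC without overlap, with a median difference of -0.81. Of the 11, Neu4, Vcan and Pdgfra passed the filter on low values, 5 or more in at least 2 libraries, only through aOPC, which fixes their direction, so no test is given for them, and they include 2 of the 3 lower ones. Neu4 was at 9.90 and 7.07 in aOPC against 3.03 and 3.61 in aOL, and Vcan at 8.87 and 5.27 in aOPC against 2.49 and 3.24 in aOL. Pdgfra, the gene of the aOPC reporter, was at 7.54 and 5.47 in aOPC against 4.98 and 1.63 in aOL. The log2 summed level of the OPC markers, 14.59 and 13.24 in aOPC against 14.32 and 14.41 in aOL, was carried by Olig2, a gene of the whole lineage, at 14.22 and 12.96 in aOPC against 14.18 and 14.23 in aOL. Therefore aOPC and aOL name the labels of the libraries in what follows, and a difference between them is a difference between libraries so labelled. Since these are bulk samples, fewer cells of a type and less RNA per cell cannot be told apart. The RRHP totals were 7113237 and 17121440 counts in aOPC against 15923775 and 27057859 in aOL. In aOPC replicate 2, 5.74% of counts fell in CpG islands, against 2.38 to 3.32% in the other 3 libraries.

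RRHP can only report on the CCGGs a gene holds, so the sites that the results turn on are shown first, each with 20 bases on either side. Sequences are from GRCm38, the build of the deposited positions, and are read on the plus strand of the genome, with the CCGG in capitals. Adgrg1 lies on the plus strand and the other 6 genes on the minus strand, so their windows show the strand opposite to the gene. The first 3 lines hold the 3 sites that passed the test, the next 4 hold CCGGs near the first of them in the same Adgrg1 intron, and the last 5 hold the site with the highest mean signal in each receptor without a called site.
Adgrg1 intron, chr8:94985926-94985969: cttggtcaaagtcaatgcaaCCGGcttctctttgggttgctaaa
Adgrb3 intron, chr1:25816905-25816948: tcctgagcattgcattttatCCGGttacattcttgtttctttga
Adgrg1 coding exon, chr8:95007289-95007332: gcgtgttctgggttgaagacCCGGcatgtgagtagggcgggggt
Adgrg1 intron, chr8:94986226-94986269: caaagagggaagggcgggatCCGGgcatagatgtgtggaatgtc
Adgrg1 intron, chr8:94986393-94986436: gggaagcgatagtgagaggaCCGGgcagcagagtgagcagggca
Adgrg1 intron, chr8:94986595-94986638: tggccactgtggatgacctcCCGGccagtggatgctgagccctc
Adgrg1 intron, chr8:94987107-94987150: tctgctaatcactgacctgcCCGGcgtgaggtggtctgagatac
Gpr37 coding exon, chr6:25669578-25669621: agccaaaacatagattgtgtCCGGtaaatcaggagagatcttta
Lpar1 coding exon, chr4:58486908-58486951: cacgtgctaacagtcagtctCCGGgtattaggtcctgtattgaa
Ednrb intron, chr14:103836317-103836360: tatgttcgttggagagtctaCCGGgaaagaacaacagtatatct
S1pr5 intron, chr9:21245851-21245894: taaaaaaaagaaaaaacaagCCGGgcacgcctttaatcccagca
S1pr1 promoter, chr3:115715364-115715407: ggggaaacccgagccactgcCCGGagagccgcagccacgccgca

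Promoters differed in how much signal their CCGGs gave, so 2 of them are shown, in the direction of the gene, from 250 bases before to 50 bases after an annotated RefSeq start on GRCm38. The Adgrg1 window lies outside CpG islands and its 2 CCGGs gave 21 and 65 counts in aOPC against 68 and 89 in aOL. The Lpar1 window holds 37 CpGs and 4 CCGGs and the 4 gave 12 and 11 counts in aOPC against 3 and 24 in aOL.
Adgrg1 promoter, first start, chr8:94976859-94977158, plus strand: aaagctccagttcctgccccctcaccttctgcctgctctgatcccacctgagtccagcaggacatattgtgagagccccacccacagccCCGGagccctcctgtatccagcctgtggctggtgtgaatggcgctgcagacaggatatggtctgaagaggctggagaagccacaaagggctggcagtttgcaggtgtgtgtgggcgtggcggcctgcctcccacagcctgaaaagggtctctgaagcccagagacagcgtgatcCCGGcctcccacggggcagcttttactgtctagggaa
Lpar1 promoter, second start, chr4:58553244-58553543, minus strand: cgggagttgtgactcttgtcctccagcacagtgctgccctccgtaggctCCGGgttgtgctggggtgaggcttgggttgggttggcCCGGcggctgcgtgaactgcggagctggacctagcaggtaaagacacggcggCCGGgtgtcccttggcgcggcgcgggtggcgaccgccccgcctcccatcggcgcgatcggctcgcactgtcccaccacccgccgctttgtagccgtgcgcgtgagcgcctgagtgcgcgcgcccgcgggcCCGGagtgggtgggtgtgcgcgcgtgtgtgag
The letters CCGG, which read the same on both strands, occurred in 8 of the 9 promoter windows of the 6 receptors that matched the RefSeq promoter table, and in 52.8% of all 32851 windows of that length. S1pr1 was not matched.

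The 7 receptors covered a wide range of RNA levels, and that range was alike in both populations. Levels of different genes were compared per length, as the deposited log2 value minus log2 of the kilobases of annotated exon (GENCODE M21). On this scale Gpr37 was highest, between 13.97 and 14.42 over the 4 libraries, which put it above 98.9 to 99.5% of the 10754 tested genes with a known length. S1pr5 followed between 13.61 and 13.71 and Lpar1 between 13.07 and 13.53. The ranges of these 3 receptors did not overlap, although S1pr5 and Lpar1 lay close. Adgrg1 stood apart in the middle, between 9.52 and 10.10. At the low end S1pr1 lay between 6.01 and 6.93, Ednrb between 4.68 and 5.99 and Adgrb3 between 3.44 and 4.92. The ranges of Ednrb and Adgrb3 overlapped, and those of S1pr1 and Ednrb nearly met. The order of the means was the same with exon lengths from RefSeq, where Ednrb was at 5.21 and Adgrb3 at 5.08.

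**Figure D1:**
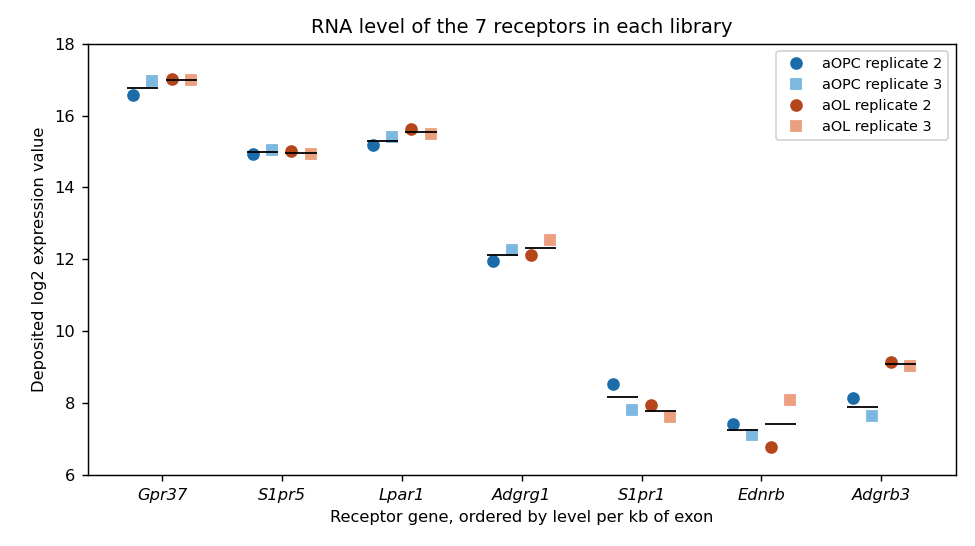
Deposited log2 expression value (vertical axis) of the 7 receptors (horizontal axis) in each of the 4 RNA libraries, with a short bar at the mean of each population (n = 2). Adgrb3 is the receptor whose aOL points, 9.13 and 9.02, lie farthest above its aOPC points, 8.13 and 7.66, while the points of S1pr5 lie together near 15.

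The question of the RNA comparison was which transcripts differ between progenitors and oligodendrocytes. None of the 7 receptors passed the threshold (p under 0.01 and adjusted p under 0.05 by limma, fitted over 11133 genes), where 0.0808% of all tested genes did. At an unadjusted p under 0.05 it was 1 of 7, Adgrb3, against 24.0% of all genes. The aOL libraries lay above the aOPC libraries without overlap in 3 of the 7, where 31.9% of all genes did, and below them in 0 of the 7, where 29.9% did. The median difference of the 7 was 0.21 log2 units, beside 0.02 over all tested genes.

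Adgrb3 had the largest difference of the 7. Its log2 values were 8.13 and 7.66 in aOPC against 9.13 and 9.02 in aOL, means of 7.89 ± 0.34 and 9.08 ± 0.077 (SD, n = 2). The populations did not overlap. The difference was 1.19 log2 units (standard error, SE, of 0.25, adjusted p = 0.134 by limma), so it missed the threshold over all genes. Leaving out 1 library moved it to 1.42 and 0.95 without aOPC replicate 2 and 3 (limma, adjusted p = 0.0151 and 0.0407) and to 1.13 and 1.24 without aOL replicate 2 and 3 (limma, adjusted p = 0.961 and 0.739). It passed only without an aOPC library, in fits in which the lone aOPC library was assumed to vary like the aOL libraries. In those 2 fits 36.3% and 21.3% of all tested genes were called.

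Gpr37 and Lpar1 also lay higher in aOL without overlap, by little. Gpr37 had log2 values of 16.57 and 16.97 in aOPC against 17.02 and 16.98 in aOL, a difference of 0.23 (SE 0.23, adjusted p = 0.560 by limma). Lpar1 had 15.17 and 15.41 in aOPC against 15.63 and 15.48 in aOL, a difference of 0.26 (SE 0.21, adjusted p = 0.475 by limma). In both genes the nearest libraries of the populations lay closer to each other than the 2 aOPC libraries did.

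The remaining 4 receptors overlapped between the populations. S1pr5, the sphingosine 1-phosphate receptor typical of mature oligodendrocytes, was at 14.94 and 15.03 in aOPC against 15.01 and 14.94 in aOL, a difference of -0.01 (limma, adjusted p = 0.967). S1pr1, the receptor of the same ligand that is abundant in endothelium and astrocytes, was at 8.53 and 7.80 in aOPC against 7.95 and 7.61 in aOL, a difference of -0.38 (limma, adjusted p = 0.511). S1pr5 was nearly level over the 4 libraries, whereas aOPC replicate 2 stood highest for S1pr1. Adgrg1 was at 11.96 and 12.27 in aOPC against 12.12 and 12.53 in aOL, a difference of 0.21 (limma, adjusted p = 0.632). Ednrb was at 7.41 and 7.11 in aOPC against 6.78 and 8.08 in aOL, a difference of 0.17 (SE 0.50, adjusted p = 0.851 by limma). The 2 aOL libraries enclosed both aOPC values of Ednrb, and the sign of its difference turned to -0.48 without aOL replicate 3.

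Some of these receptors are also made by other brain cells. The 8 astrocyte markers were all listed, at a log2 summed level of 13.76 and 13.41 in aOPC against 13.43 and 13.64 in aOL, a sum carried by Slc1a3, at 12.38 and 12.52 in aOPC against 12.91 and 12.97 in aOL. The median level of the list was 10.13 and 9.28 in aOPC against 8.74 and 9.12 in aOL, the median difference was -0.60, and 2 of 8 lay below and 1 above aOPC without overlap, under the shares of 29.9% and 31.9% of all genes. Gfap was at 10.06 and 9.59 in aOPC against 9.11 and 9.10 in aOL (limma, adjusted p = 0.194), and Gja1 differed by -1.21 (limma, adjusted p = 0.290). Ednrb, which astrocytes express, overlapped between the populations beside these values. Of 10 endothelial markers 2 were listed, Cldn5 and Kdr, at a log2 summed level of 9.07 and 9.37 in aOPC against 9.83 and 10.25 in aOL. Cldn5, a tight junction gene of endothelium, was close to 0 in aOPC, at 0.33 and 1.80, and was at 5.92 and 7.13 in aOL. Of 9 mural and fibroblast markers 5 were listed, at 11.12 and 11.34 in aOPC against 8.43 and 9.96 in aOL. Of 11 microglia markers 10 were listed, at 12.62 and 11.94 against 12.20 and 11.77, and of 8 neuronal markers 6 were listed, at 12.14 and 12.46 against 11.68 and 11.84. The part of these cells in the receptor values was not tested.

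Genes whose pattern over the 4 libraries was most like that of each receptor were found by the Euclidean distance of the values after subtraction of each gene's mean. For Adgrb3 they were Slain2, at a distance of 0.055 log2 units, and Abcg4, at 0.060. For Gpr37 they were Urb1 (0.016) and Glud1 (0.020), for Lpar1 Gpd2 (0.024) and Elovl5 (0.026), and for S1pr5 Pmpca (0.027) and Fbxo31 (0.028). With 4 libraries such likeness is common, since 3097 genes lay within 0.5 of Gpr37, 3166 of Lpar1, 3645 of S1pr5 and 699 of Adgrb3. Adgrg1 was nearest to Rbm12b2 (0.070) and Zfp661 (0.108), and S1pr1 to Fbxl2 (0.110) and Ppm1m (0.122). Ednrb had the least common pattern, with 13 genes within 0.5, of which Mdk (0.221) and Col23a1 (0.236) were the nearest.

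The genes around the receptors were described from 5 lists, with 71 of 105 members in the RNA tables. None of the 71 was called (limma), 10 were higher and 6 lower in aOL at an unadjusted p under 0.05, which is 22.5% beside 24.0% of all tested genes, and 24 lay above and 16 below aOPC without overlap, which is 33.8% and 22.5% beside 31.9% and 29.9%. The lists thus stood near the whole table. Among 13 measured ligands and ligand enzymes, Enpp2, which encodes autotaxin, the enzyme that makes lysophosphatidic acid for LPAR1, was at 17.86 and 17.66 in aOPC against 18.84 and 18.84 in aOL, a difference of 1.08 (limma, adjusted p = 0.132). Col3a1, which encodes the collagen that binds ADGRG1, was at 8.06 and 8.80 in aOPC against 5.97 and 3.61 in aOL, a difference of -3.64 (limma, adjusted p = 0.147). It lay beside Col1a1, Col1a2 and Dcn of the mural and fibroblast list, which were lower in aOL by 4.98, 3.27 and 4.14 log2 units (limma, adjusted p = 0.147, 0.108 and 0.122) and missed the threshold. The other 2 listed members of that list overlapped between the populations, Vtn at 4.96 and 7.09 in aOPC against 5.99 and 9.74 in aOL, and Acta2 at 2.46 and 5.27 in aOPC against 5.07 and 5.26 in aOL. Ece2, one of the endothelin-converting enzymes, was at 7.19 and 8.46 in aOPC against 6.91 and 6.90 in aOL, a difference of -0.92 (limma, adjusted p = 0.312).

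Among 8 measured relatives of the 7 receptors, the adhesion receptors Adgrg2 and Adgrg6 lay higher in aOL. Adgrg2 was at 8.18 and 8.77 in aOPC against 9.90 and 9.79 in aOL, a difference of 1.36 (limma, adjusted p = 0.134). Adgrg6 was at 7.23 and 5.90 in aOPC against 8.38 and 8.77 in aOL, a difference of 2.01 (limma, adjusted p = 0.155). Neither passed the threshold. Ednra, the other endothelin receptor, was at 6.36 and 5.85 in aOPC against 1.57 and 4.97 in aOL, but it passed the filter on low values only through aOPC, so no test is given. Of 6 measured receptors of the lineage outside these families, Cxcr4, a chemokine receptor, was at 2.09 and 5.65 in aOPC against 7.30 and 7.69 in aOL, a difference of 3.62 (limma, adjusted p = 0.197), and Gpr62 was at 13.79 and 13.96 against 13.46 and 13.50, a difference of -0.40 (limma, adjusted p = 0.287).

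All 19 G protein subunits on the list were measured, and 2 were higher and 3 lower in aOL at an unadjusted p under 0.05, the level that 24.0% of all genes reached. Gnb4, a beta subunit, was at 12.17 and 12.06 in aOPC against 11.25 and 11.20 in aOL, a difference of -0.89 (limma, adjusted p = 0.135). Gnao1, an alpha subunit, was at 15.08 and 13.81 in aOPC against 15.53 and 15.44 in aOL, a difference of 1.04 (limma, adjusted p = 0.270), and the gamma subunit Gng12 differed by 0.95 (limma, adjusted p = 0.206). Among 25 measured transducers and regulators, 3 were higher and none was lower at that level. Rgs7, which speeds the return of G proteins to rest, is 1 of the 3, at 4.79 and 4.98 in aOPC against 6.82 and 6.08 in aOL, and passed the filter only through aOL, so no test is given for it. Arhgef11, which links G12 and G13 to RhoA, differed by 1.55 (limma, adjusted p = 0.219), and the receptor kinase Grk5 by 1.36 (limma, adjusted p = 0.152).

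In RRHP the receptors differed first in how many sites they hold. Adgrb3 (chr1:25067476-25834772) is a gene of 767.3 kb with 313 CCGGs, of which 66.1% had a read in some library. S1pr5 (chr9:21242917-21248443) has 5.5 kb and 20 CCGGs, of which 19 had a read. Adgrg1 (chr8:94974756-95014208) has 66 CCGGs in 39.5 kb, Lpar1 (chr4:58435252-58554027) 67 in 118.8 kb, Ednrb (chr14:103814615-103844508) 24 in 29.9 kb, Gpr37 (chr6:25668523-25689980) 14 in 21.5 kb and S1pr1 (chr3:115710433-115715055) 9 in 4.6 kb. CCGGs were thus densest in the 2 short sphingosine 1-phosphate receptor genes, at 36.2 per 10 kb in S1pr5 and 19.5 in S1pr1, and sparsest in Adgrb3, at 4.08.

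Counts summed over each gene body, the sites in the exon or intron columns, were given as CPM, the count scaled to the total of its library. This scaling and that of the fits remove differences shared by most sites. A value is therefore a share of a library's signal and not an amount of 5hmC. None of the 7 gene bodies was called (edgeR quasi-likelihood, adjusted p under 0.05 over 18488 genes), where 0.849% of all tested gene bodies were. Gpr37 came nearest. Its gene body held 29.2 and 22.4 CPM in aOPC against 17.6 and 16.7 CPM in aOL, means of 25.8 ± 4.86 and 17.2 ± 0.64 (SD, n = 2), without overlap. The log2 difference was -0.58 (SE 0.16, adjusted p = 0.244 by edgeR). Of its 5 tested sites, 4 reached 10 reads in both populations and had lower fitted values in aOL, and the fifth reached 10 reads only in aOPC. These 4 lie close together, at the CCGGs starting at 25669598, 25669694 and 25669800, which hold most of the gene body counts. Of the 107 receptor sites that reached 10 reads in both populations, 62 had lower fitted values in aOL. The highest Gpr37 site, at 25669599 on the plus strand, had 87 and 177 counts in aOPC against 147 and 204 in aOL, a log2 difference of -0.54 (SE 0.27, adjusted p = 0.560 by edgeR).

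The short S1P receptor genes had their highest gene body signal in aOPC replicate 2. S1pr5 held 12.9 and 7.01 CPM in aOPC against 5.84 and 6.91 CPM in aOL, a log2 difference of -0.60 (edgeR, adjusted p = 0.718). S1pr1 held 5.76 and 2.75 CPM in aOPC against 2.58 and 2.48 CPM in aOL, a difference of -0.71 (edgeR, adjusted p = 0.754). For both genes aOPC replicate 3 lay close to the aOL libraries. Of the 32 S1pr5 sites 21 lie in CpG islands, and aOPC replicate 2 is the library with the largest island share, whose part in these values was not tested. Without aOPC replicate 3, Gpr37, S1pr1 and S1pr5 were called at -0.76, -1.18 and -0.99 (edgeR, adjusted p = 9.56e-05, 0.0190 and 0.000800), calls that rest on aOPC replicate 2 alone on that side, while without aOPC replicate 2 the differences were -0.40, -0.14 and -0.14 and none was called. Of all tested gene bodies 22.6% were called without aOPC replicate 3 and 3.27% without aOPC replicate 2.

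The 4 other gene bodies were near equal in CPM. Adgrg1 held 68.5 and 63.8 CPM in aOPC against 70.1 and 65.2 CPM in aOL, a log2 difference of 0.03 (SE 0.12, adjusted p = 0.959 by edgeR). Lpar1 held 47.0 and 54.6 CPM in aOPC against 54.5 and 49.1 CPM in aOL, a difference of 0.01. Adgrb3, with the most signal of the 7, held 98.5 and 109.6 CPM in aOPC against 109.5 and 119.7 CPM in aOL, a difference of 0.13 (edgeR, adjusted p = 0.815). Some Adgrb3 CCGGs lie in windows of the same sequence, such as those starting at 25119909 and 25120121. The first had 3 and 1 counts in aOPC against 4 and 28 in aOL, and the second 4 and 9 against 3 and 34. The part of such repeats in the gene body sum was not tested. Ednrb held 26.0 and 28.1 CPM in aOPC against 30.9 and 28.1 CPM in aOL, a difference of 0.11. The populations overlapped in Adgrg1, Lpar1 and Adgrb3, and in Ednrb the aOPC and aOL values of replicate 3 were nearly the same. The RNA difference of Adgrb3 thus stood beside a gene body difference within its error.

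**Figure D2:**
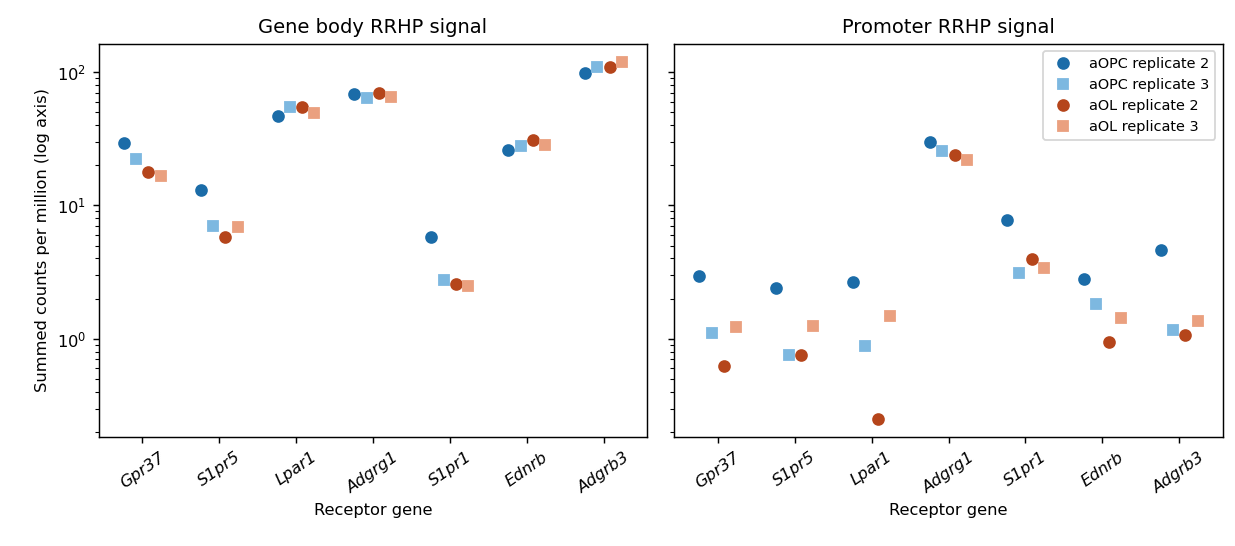
RRHP signal in CPM summed over the gene body (left) and the promoter (right) of each receptor, on a log axis, with 1 point per library. Gpr37 descends from 29.2 to 16.7 in the gene body, aOPC replicate 2 lies highest for S1pr1 and S1pr5, and every promoter but that of Adgrg1 holds less than 10 CPM.

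The promoter of Adgrg1 held the most signal of the 7. None of the 7 was called (edgeR, adjusted p under 0.05 over 14579 genes), where 0.768% of all tested promoters were. Adgrg1 held 29.7 and 25.5 CPM over its 10 promoter sites in aOPC against 23.7 and 21.9 CPM in aOL, without overlap, and none of these sites lies in a CpG island. Its log2 difference was 0.17 with TMM, which gave aOPC replicate 2 a factor of 1.75, and -0.27 with library totals, where the median of all promoters moved from -0.01 to -0.60. Relative to that median it was 0.18 and 0.33. S1pr1 went from 0.09 to -0.53 and S1pr5 from 0.06 to -0.56, which is 0.10 and 0.06, and 0.08 and 0.03, relative to the median, so the change of sign was that of the shift shared by all promoters. S1pr1 had 55 and 53 counts over 10 promoter sites in aOPC against 63 and 92 in aOL, or 7.73 and 3.10 CPM against 3.96 and 3.40 CPM, which is more than its gene body held in each library. Per site this was 0.773 and 0.310 CPM in aOPC against 0.396 and 0.340 in aOL, where the mean over all promoter sites was 0.409 and 0.243 against 0.233 and 0.264.

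Gpr37, S1pr5 and Lpar1, the 3 receptors with the highest RNA levels per length, had few promoter counts, as did Adgrb3 and Ednrb. Gpr37 had 21 and 19 counts over 9 promoter sites in aOPC against 10 and 33 in aOL, with at most 8 counts at a site, and a log2 difference of -0.46. Lpar1 had 19 and 15 counts over 14 sites in aOPC against 4 and 40 in aOL, a difference of -0.28, and S1pr5 17 and 13 over 9 sites against 12 and 34. In these 3 genes most promoter sites lie in CpG islands, as do 13 of 19 in Adgrb3. Adgrb3 had 33 and 20 counts over its promoter sites in aOPC against 17 and 37 in aOL, a difference of -0.50. Ednrb had 20 and 31 over 8 sites against 15 and 39, a difference of -0.45, although none of its sites lies in an island.

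Single sites gave the only calls. Of the 500 receptor sites 125 had at least 10 reads in at least 2 libraries and were tested, 48 in Adgrb3, 35 in Adgrg1, 17 in Lpar1, 11 in Ednrb, 6 in S1pr1, 5 in Gpr37 and 3 in S1pr5. Of these, 2 were called higher in aOL (edgeR, adjusted p under 0.05), where 1.21% of all 443062 tested sites were, and 1 was called lower, where 1.08% were. At an unadjusted p under 0.05, 7 were higher and 8 lower, against 9.75% of all tested sites in either direction. The 3 called sites belong to the adhesion receptors Adgrg1 and Adgrb3, which also hold most of the tested sites. Of the 125 tested sites 107 reached 10 reads in a library of both populations, 16 only in aOL and 2 only in aOPC. Both sites called higher reached them only in aOL and the site called lower only in aOPC, and for such sites the read filter largely fixes the direction. Their counts are therefore described with counting intervals and without p-values. The intervals cover counting error and are no test of the direction.

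The site called lower lies in an Adgrg1 intron, at 94985947 on the plus strand of chromosome 8, 8838 bases past the first curated start. It had 20 and 52 counts in aOPC against 1 and 3 in aOL, which is 2.92 ± 0.16 and 0.0868 ± 0.034 CPM (SD, n = 2). Pooled over libraries the aOPC signal was 31.9 times that of aOL, with an exact 95% counting interval of 11.9 to 120.0. The fitted log2 difference was -4.97. Both aOL libraries were at or below the floor of 3 counts, so the size of the ratio is uncertain. The site was too low to be tested without either aOPC library.

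The second call was an Adgrb3 intron site higher in aOL, at 25816926 on the plus strand of chromosome 1, 12781 bases past the start. It had 1 and 7 counts in aOPC against 54 and 57 in aOL, which is 0.275 ± 0.19 and 2.75 ± 0.91 CPM (SD, n = 2). The pooled ratio was 7.82, with an exact 95% counting interval of 3.84 to 18.6, and the fitted log2 difference was 2.97. It was 2.71 without aOPC replicate 2 and 3.92 without aOPC replicate 3, and the site was too low to be tested without either aOL library. The third call, also higher in aOL, lies in a coding exon of Adgrg1, at 95007311 on the minus strand. It had 0 and 0 counts in aOPC, which allows up to 0.422 and 0.175 CPM, and 13 and 13 in aOL, at least 2.17-fold higher against the floor of 3 counts per library. It was no longer called without aOPC replicate 2 or 3 or when both strands of a CpG were summed, and it was too low to be tested without either aOL library.

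Both sites called higher are ends whose next CCGG in the direction read lies 392 and 406 bp away. At that distance the populations differed over the whole genome. Ends with the next CCGG at 350 to under 600 bp held 0.067 and 0.060 CPM on average in aOPC against 0.156 and 0.131 in aOL, 2.26 times as much, whereas at 100 to under 200 bp the ratio was 0.966. Of all tested sites in the 350 to under 600 bp class 11.6% were called higher, against 0.143% at 100 to under 200 bp. At 600 bp or more 10.7% were called higher too, although the ratio of the mean CPM per end was 1.11 there. Over all 82 receptor ends at 350 to under 600 bp, with no read filter, the means were 0.079 and 0.066 CPM per end in aOPC against 0.204 and 0.166 in aOL. Of the 8 tested receptor sites in that class 6 reached 10 reads only in aOL, so their direction is not counted here. The part of this in the 2 calls was not tested. The site called lower has its next CCGG at 300 bp, outside that class.

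**Figure D3:**
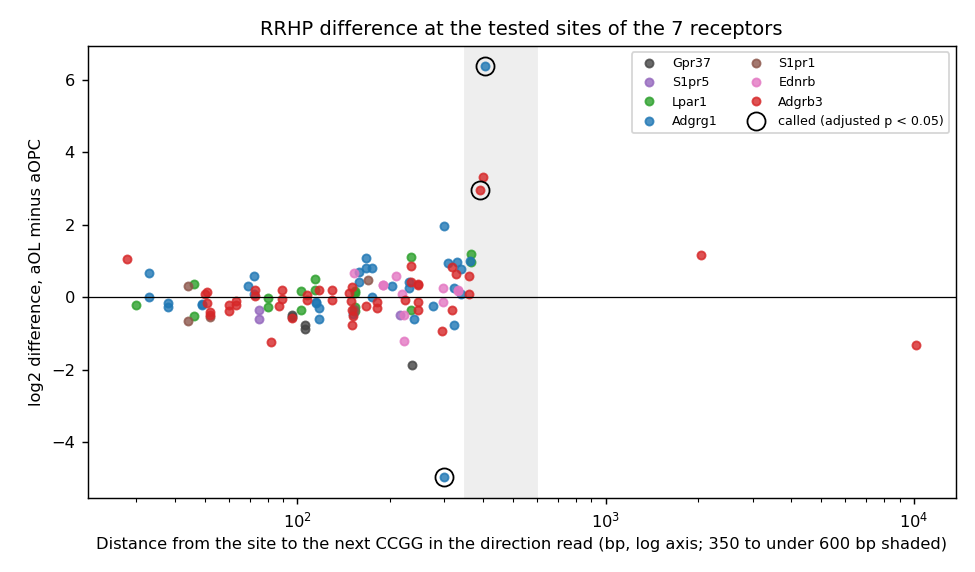
Log2 difference of the 125 tested receptor sites, aOL minus aOPC (vertical axis), against the distance to the next CCGG in the direction read (horizontal log axis), with the class of 350 to under 600 bp shaded and the 3 called sites circled. The shaded class holds 8 points, of which 6 reached 10 reads only in aOL, and the called site at -4.97 lies outside it at 300 bp.

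**Figure D4:**
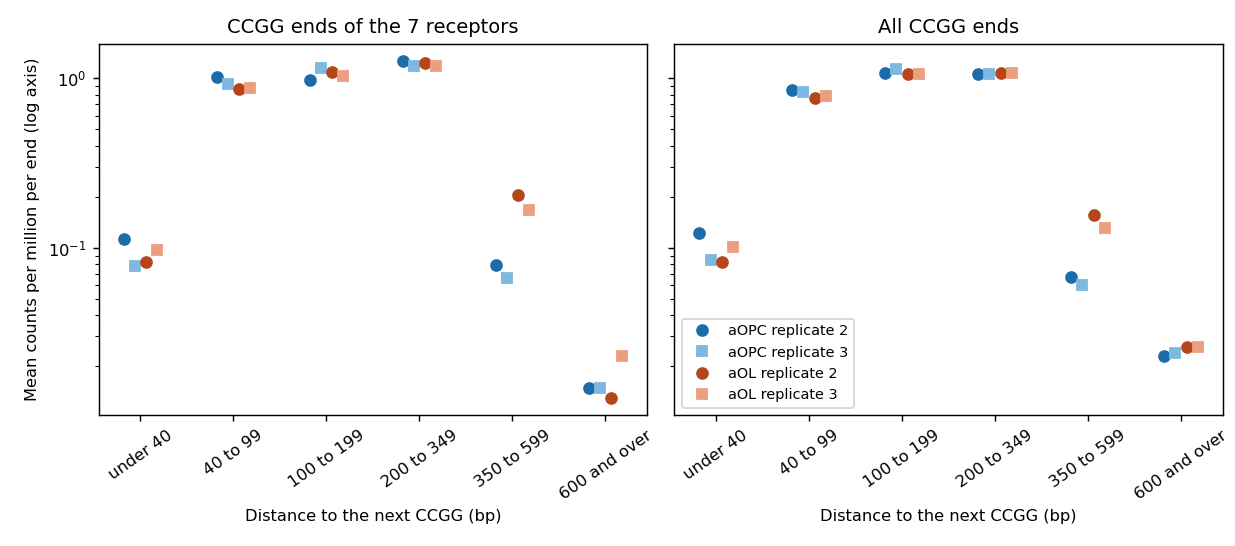
Mean RRHP signal in CPM per CCGG end (log axis) by distance to the next CCGG, for the ends of the 7 receptors (left) and of all assembled chromosomes (right), with 1 point per library. The 2 populations lie together from 40 to under 350 bp and apart at 350 to under 600 bp, where aOL is 2.55 times aOPC in the receptors and 2.26 times in all ends.

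The share of receptor ends with a read also differed with the distance to the next CCGG. At 40 to under 100 bp 98.9% of the receptor ends had a read, as did all 91 ends at 100 to under 200 bp and all 70 ends at 200 to under 350 bp. Below 40 bp it was 48.7%, at 350 to under 600 bp 52.4%, and at 600 bp or more 22.1% of 544 ends. In Adgrb3, 362 of its ends fell in the last class. A site without reads there was not counted as a site without the mark.

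The Adgrg1 intron around the site called lower was looked at after its values were seen, so no test is given for it. Over 1185 bases it holds 6 CCGGs with reads, and their counts of both strands moved in opposite directions. The CCGG of the called site, 8838 bases past the start, had 21 and 52 counts in aOPC against 1 and 3 in aOL. The next, at 9138 bases, had 5 and 25 in aOPC against 50 and 81 in aOL. Those at 9507 and 9743 bases had 9 and 9, and 6 and 2, in aOPC against 0 and 1 in aOL at both. The CCGGs at 9305 and 10019 bases differed little in CPM over the 4 libraries. Signal at neighbouring sites of this intron was thus high in different populations, and summed over the 6 it was 7.17 and 6.48 CPM in aOPC against 4.65 and 4.58 CPM in aOL. The higher sum in aOPC came from the CCGG of the called site, which passed the read filter only through aOPC.

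**Figure D5:**
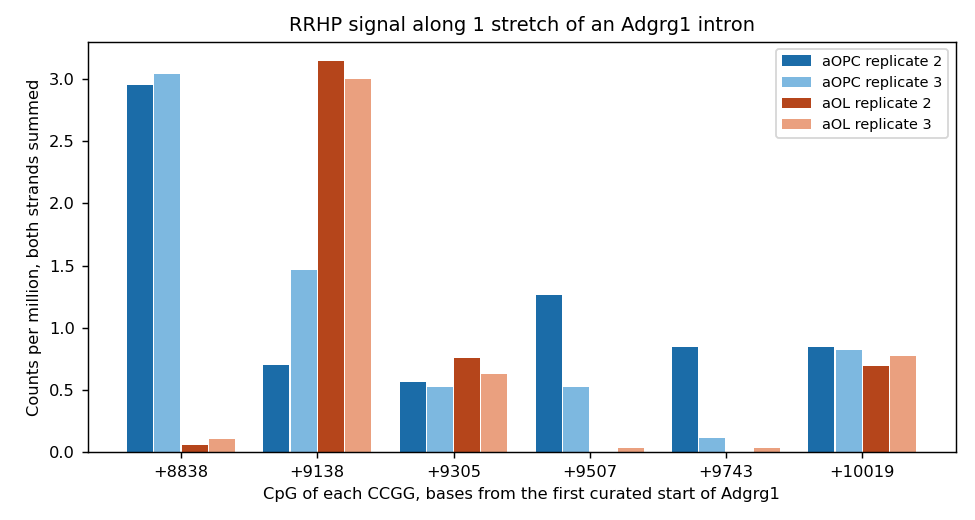
RRHP signal in CPM, both strands summed, at 6 CCGGs of an Adgrg1 intron (horizontal axis: bases from the first curated start), with 1 bar per library. The aOPC bars reach 2.95 and 3.04 at +8838, where aOL is near 0, and the aOL bars reach 3.14 and 2.99 at +9138.

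Adgrg1 also lies in a stretch of chromosome 8 with many sites of this kind. A site was counted as one-sided if it was called and had at most 3 counts in each library of the lower population. In the 5 Mb bin that holds the start of Adgrg1, 13.2% of 1176 tested sites were one-sided, rank 10 of 532 bins, and in the next bin, which holds the rest of the gene, 4.99% were. The median bin had 0.55%. S1pr1 lies in a bin with 5.54%, rank 39. Within 250 kb of the gene 18 of 94 tested sites were called, 14 of them one-sided, although none of its own 6 tested sites was. Of all tested sites 2.29% were called. The bins of the other 5 receptors had 0.165 to 0.908%. Within 250 kb of Adgrg1 9.47% of 264 tested sites were called, with 22 one-sided ones among them, and within 250 kb of S1pr5 and Ednrb none of 258 and 99 was. Directions are not given, because the read filter largely fixes them at one-sided sites.

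None of the sites with the highest mean signal was called. Lpar1 had its highest site in a coding exon, at 58486929 on the plus strand, with 79 and 145 counts in aOPC against 145 and 203 in aOL, a log2 difference of -0.34 (SE 0.28, adjusted p = 0.781 by edgeR). Ednrb had it in an intron, at 103836339 on the minus strand, with 64 and 118 against 134 and 193, a difference of -0.13 (SE 0.29, adjusted p = 0.934 by edgeR). In CPM the populations overlapped at the Ednrb site. S1pr5 had 23 and 35 counts against 37 and 44 at an intron site, a difference of -0.48 (edgeR, adjusted p = 0.778). S1pr1 had 10 and 16 against 15 and 19 at a promoter site before its start, at position -331, a difference of -0.56 (edgeR, adjusted p = 0.808). Adgrg1 had its highest site in the intron behind its second start, with 86 and 160 counts against 126 and 232, a difference of -0.48 (edgeR, adjusted p = 0.657), and Adgrb3 had 31 and 79 against 98 and 104, a difference of 0.03.

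Of the 5 lists of related genes, 102 gene bodies and 89 promoters were tested in RRHP and none was called (edgeR). At an unadjusted p under 0.05, 3 gene bodies were higher and 8 lower in aOL, which is 10.8% beside 7.3% of all tested gene bodies, and 2 promoters were higher, which is 2.25% beside 5.97% of all tested promoters. Adgrg3 and Adgrg5, the neighbours of Adgrg1 in a cluster of adhesion receptor genes, had gene body differences of -0.07 and 0.03, beside 0.03 for Adgrg1.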

How the data were processed

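The deposited RNA values are log2 expression values per gene. In the study's methods, reads were aligned to mm10 with BWA by the authors, who counted those in exons with featureCounts and used DESeq2. The DESeq2 version named there differs from the 1.2.5 of the submitters' processing notes. The quantiles of the deposited log2 values are nearly equal between libraries, which removes differences shared by most genes, and the values carry no depth. The deposited RRHP values are raw counts per CpG site and strand, which the authors aligned to mm10 and annotated with promoter, exon, intron and island columns. The aligner and the handling of duplicate reads are not given in the sources used here. Without molecular identifiers, intervals and floors (3 counts) cover counting error only. At least 1 other gene overlaps Adgrg1, Adgrb3, Lpar1 and Ednrb. Adgrg1 and Adgrb3 appear in RRHP under the older symbols Gpr56 and Bai3. Of all sites 99.83% lay at a CCGG of GRCm38.

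RNA was tested with limma 3.58.1 on genes at 5 or more in at least 2 libraries. RRHP was tested with edgeR 4.0.16 (quasi-likelihood, TMM) on sites where 2 or more libraries had 10 reads or more, and on gene body and promoter sums after filterByExpr. DESeq2 1.42.0, other filters and scalings, a replicate block and leaving out each library were alternatives, and summed strands and a range of CCGG distances were added after seeing the data. Both procedures were tested on simulated data. One oligodendrocyte marker, and the summed level of the list that holds it, are not reported here. The members and lists were chosen with earlier results of these data known. Named genes were all 7 receptors, at most 3 non-overlapping genes per list by size of difference, 2 genes nearest in pattern per receptor, and called sites or else the highest site. Olig2, Cnp, Ermn, Vtn and Acta2 were named after their values were seen. R 4.3.3, Python 3.11.15 and pandas 2.3.3 were used.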

Additional observations from a re-analysis of the deposited data

How the results depend on the processing

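None of the 7 receptors was called in RNA under any other filter, centring, variance trend or replicate block, and no promoter was called in any alternative run. Leaving out 1 library gave 0 to 1 receptors called in RNA (Adgrb3), 0 to 3 gene bodies, 0 to 3 sites called higher and 0 to 5 called lower. Without aOPC replicate 2 or 3 the RNA calls over all genes were 2026 and 1323 higher and 1969 and 1021 lower, and those over all gene bodies 236 and 1928 higher and 373 and 2318 lower, against 30 and 127. Sites called higher numbered 0 with at least 10 reads in every library, 4 with at least 3 reads in 2 libraries, 1 with DESeq2, 1 with strands summed and 0 with the next CCGG at 40 to under 350 bp, which leaves out both sites by distance. Sites called lower numbered 0 and 2 under the first and second of these filters. Over all tested sites the calls ranged from 229 to 10623 higher and from 261 to 15643 lower, against 5382 and 4772. Over all genes RNA calls were 0 without the filter and 30 higher and 97 lower with the replicate block, against 1 and 8.

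Some differences turned sign. The promoter difference of Adgrg1 was -0.06 and that of S1pr1 -0.10 when each site had 3 or more reads in all libraries, and with library totals they were -0.27 and -0.53, and -0.56 for S1pr5, where the median of all promoters was -0.60. The highest Ednrb site moved to 0.05 and 0.01 with the stricter and the looser read filter. Leaving out 1 library gave ranges of -0.75 to -0.02 for S1pr1 RNA, 0.04 to 0.43 for Gpr37 RNA, 0.00 to 0.42 for Adgrg1 RNA, 0.14 to 0.39 for Lpar1 RNA, -0.06 to 0.03 for S1pr5 RNA, -0.48 to 0.82 for Ednrb RNA, -0.02 to 0.08 and -0.10 to 0.15 for the Adgrg1 and Lpar1 gene bodies, and 0.04 to 0.23 and 0.04 to 0.19 for those of Adgrb3 and Ednrb. For the highest sites they were -0.49 to 0.18 (Ednrb), -1.01 to -0.06 (S1pr5), -1.07 to -0.20 (S1pr1), -0.70 to -0.02 (Lpar1) and -0.82 to -0.30 (Gpr37). For promoters the ranges were -0.21 to 0.70 (Adgrg1), -0.18 to 0.37 (S1pr1), -0.18 to 0.36 (S1pr5), -1.92 to 0.29 (Lpar1), -0.86 to -0.00 (Adgrb3), -0.85 to -0.22 (Gpr37) and -0.65 to -0.15 (Ednrb). The cause was not tested other than for library totals, which moved all promoters.

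Replicate numbers are shared by both populations, but same-numbered libraries come from different reporter lines. Their deviations from the population means correlated at -0.074 in RNA and -0.08 in RRHP across features, and the main fits used no pairing. With 2 libraries per population these correlations cannot decide whether the numbers pair the libraries. With the replicate block the receptor calls were again 0 in RNA, 2 sites higher and 1 lower, 0 gene bodies and 0 promoters.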

Other observations

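Among the marker lists, which the comparisons of the receptors did not use in RRHP, 1 of 62 tested gene bodies and 1 of 39 tested promoters passed the test, where 0.849% and 0.768% of all gene bodies and promoters did. The gene body of Mobp, which encodes a myelin protein, held 15.0 and 19.04 CPM (the count scaled to the library total) in aOPC against 7.54 and 8.02 in aOL, a log2 difference of -1.16 (edgeR, adjusted p = 0.0195). The promoter of C1qb, a complement gene of microglia, held 4.22 and 5.26 in aOPC against 0.502 and 0.517 in aOL, a log2 difference of -2.90 (edgeR, adjusted p = 0.00108). The RNA of Mobp was at 17.94 and 16.57 in aOPC against 17.34 and 17.59 in aOL, and that of C1qb at 8.04 and 6.53 in aOPC against 6.56 and 5.75 in aOL.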
